A study of Mus musculus with 8 samples.

Results

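The neuroligins and neurexins are the genes of a receptor pair that joins cells across a synapse, and 5 of them were followed in mouse subcutaneous fat. The members are Nlgn1, Nlgn2, Nlgn3, Nrxn2 and Nrxn3, taken by symbol from a count table of 18022 genes. The set was chosen by the measured Nlgn1 level, which was higher in every library labelled KO, so the KO against WT values of the members are given below as a description, without a test. Poly(A) RNA was sequenced from subcutaneous fat of 8 mice on a C57BL/6J background. The mice labelled KO carry the genotype Pkd1adipo delta/delta, an adipocyte deletion of Pkd1, and number 4; the mice labelled WT carry Pkd1(flox/flox), also 4. Pkd1 stands in the labels for protein kinase D1, the product of Prkd1. The sources used here do not give the Cre driver, the age or the sex of the mice. Library names join the label and the replicate number, as in KO1.

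Neuroligins sit on the receiving side of a synapse and bind neurexins on the sending side, and the pair recruits scaffold and release proteins to the contact. Nlgn1 is known mainly from excitatory synapses, Nlgn2 from inhibitory ones and Nlgn3 from both. Neurexin genes make long and short proteins from separate promoters. Both families are also known from the walls of blood vessels, and fat holds nerve fibres and vessels as well as adipocytes. In RNA of whole tissue, fewer cells of a type and less RNA per cell cannot be told apart.

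RefSeq start windows were at hand for 3 of the 5 members (GRCm38.p6, 250 bases before to 50 bases after a start). The 2 windows of Nlgn1 are shown because Nlgn1 is the member that separated the labels, and that of Nlgn2 because Nlgn2 held the most even level of the family. All 3 lie on the minus strand and are written 5′ to 3′. Capitals mark matches to TTCAGCACC, one arm of the site of the neuronal gene repressor REST, or to CAGCTG, an E-box core. Both strands were searched, and the motifs were chosen after the sequences were read.
Nlgn1 start at chr3:26331860-26332159: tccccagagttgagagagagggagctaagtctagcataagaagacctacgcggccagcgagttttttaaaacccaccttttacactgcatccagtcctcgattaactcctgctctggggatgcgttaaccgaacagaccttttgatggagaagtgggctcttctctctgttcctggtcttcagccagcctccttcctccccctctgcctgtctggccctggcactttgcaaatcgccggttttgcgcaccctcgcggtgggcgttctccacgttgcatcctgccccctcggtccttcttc
Nlgn1 start at chr3:26153937-26154236: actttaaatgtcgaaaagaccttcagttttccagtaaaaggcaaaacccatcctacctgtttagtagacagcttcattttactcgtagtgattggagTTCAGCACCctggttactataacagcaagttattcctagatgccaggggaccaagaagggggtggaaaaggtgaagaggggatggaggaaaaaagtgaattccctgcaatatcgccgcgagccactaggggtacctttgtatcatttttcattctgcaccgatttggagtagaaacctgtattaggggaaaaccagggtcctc
Nlgn2 start at chr11:69837735-69838034: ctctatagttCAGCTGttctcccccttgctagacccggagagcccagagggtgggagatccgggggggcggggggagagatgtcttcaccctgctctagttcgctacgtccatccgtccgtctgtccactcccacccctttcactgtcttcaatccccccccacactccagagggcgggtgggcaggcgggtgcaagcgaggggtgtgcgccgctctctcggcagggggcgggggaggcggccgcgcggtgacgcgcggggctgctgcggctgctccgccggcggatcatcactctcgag
The second Nlgn1 window held 1 match to TTCAGCACC, at bases 98 to 106 of the window, and the other 2 windows held none. The windows of Nrxn3, which are not shown, were searched too and held no match to either motif. That motif was present in 122 of 32851 windows of this length, or 0.371%. CAGCTG was present once in the Nlgn2 window and in 16.3% of all windows; the motifs do not overlap. The first Nlgn1 window held 14 CG dinucleotides, the second 6 and the Nlgn2 window 26, against a median of 7 over all windows. The counts cover the whole gene and do not tell which start was used.

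The libraries held between 2617755 and 2873457 reads, so a member's value rests on between 2 and 100 reads. Prkd1 itself stood at 31.4 ± 4.78 CPM (CPM are library-scaled read counts, with TMM factors; SD, n = 4) in libraries labelled KO and 30.1 ± 3.30 CPM in libraries labelled WT (n = 4). Its whole-gene count includes cells other than adipocytes, and the sources used here do not name the deleted exons, so it did not check the labels. The adipocyte markers Adipoq, Plin1, Fabp4, Cidec, Lep, Pparg, Lipe and Pnpla2 summed to between 14040 and 17750 CPM in libraries labelled KO and between 14100 and 16970 CPM in those labelled WT.

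KO1 stood apart from the other 7 libraries. All 7 neuron markers in the table, of 11 listed, were highest there. Their sum was 247.7 CPM in KO1, 28.3 in KO2, 14.1 in KO3 and 14.9 in KO4, against 12.1 to 29.9 CPM in the libraries labelled WT. Snap25, a protein of transmitter release, had 190 reads in KO1 and between 1 and 11 reads in each other library. Rbfox3, a nuclear marker of mature neurons, had 66 reads in KO1 and at most 12 elsewhere. The 10 Schwann cell and myelin markers summed to 702 CPM in KO1 and to between 348.2 and 433.9 CPM in the other 7. Of 6 sympathetic markers 1 was in the table, Slc18a2, with 6.15 CPM in KO1 and between 3.56 and 9.59 CPM in the other libraries. Results that rest on KO1 are therefore given with and without it.

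**Figure D1:**
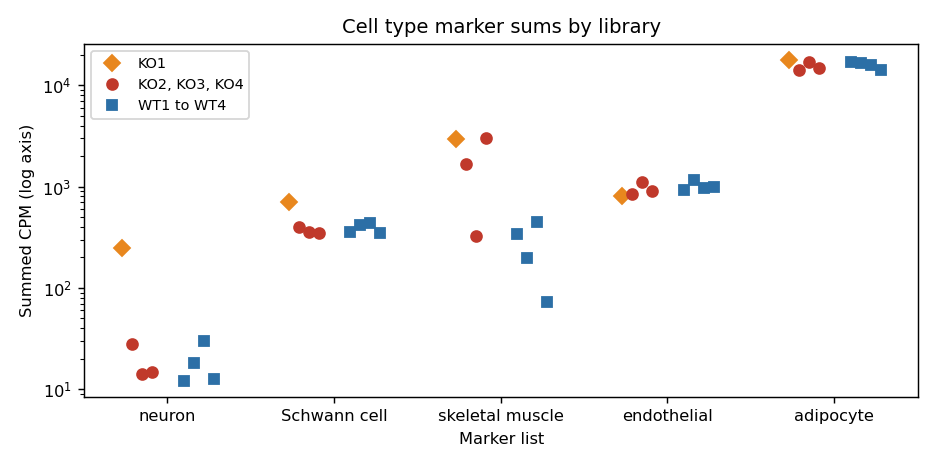
Summed CPM (log axis) of 5 marker lists in each library; orange diamonds are KO1, red circles KO2 to KO4 and blue squares WT1 to WT4. KO1 is far above the other libraries for neuron markers (247.7 CPM), while skeletal muscle markers are high in KO1, KO2 and KO4.

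Skeletal muscle markers also differed between libraries. The 15 markers summed to 2919 CPM in KO1, 1657 in KO2, 323.3 in KO3 and 3026 in KO4, against 73.3 to 443.5 CPM in the libraries labelled WT. For both muscle and neuron sums KO3 thus fell between the lowest and the highest WT library. Single muscle markers in KO3 went both ways. Myh2, a fast myosin heavy chain, stood at 8.82 CPM in KO3, against at most 4.62 CPM in a library labelled WT. Myh1, Mb and Eno3 in KO3 were 1.56, 1.12 and 1.05 times the highest WT library. All other muscle markers on the list lay below the highest WT library in KO3, from 0.22 times it for Myh4 to 0.859 times for Tnnc2. Endothelial markers summed to between 803.3 and 1112 CPM in libraries labelled KO and between 917 and 1168 CPM in libraries labelled WT. Smooth muscle and pericyte markers summed to between 401.8 and 650.3 CPM in libraries labelled KO and between 485.1 and 674.7 CPM in those labelled WT. Progenitor markers reached 2171 to 3120 CPM in libraries labelled KO and 2488 to 3361 CPM in those labelled WT, and macrophage markers 378.3 to 548.8 CPM in KO and 381.8 to 516.8 CPM in WT. Of 6 epithelial markers 1 was in the table, Cdh1, with at most 1 read in a library labelled KO and between 3 and 23 reads in those labelled WT.

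Nlgn1 (ENSMUSG00000063887), the neuroligin of excitatory synapses, was the member that separated the labels, which is what it was picked for. It had 56, 29, 31 and 34 reads in KO1 to KO4, and 16, 14, 14 and 8 reads in WT1 to WT4. On the scaled level this was 20.3, 9.87, 10.9 and 12.1 CPM in KO1 to KO4, against 5.88, 5.53, 4.98 and 2.89 CPM in WT1 to WT4. The lowest library labelled KO lay above the highest labelled WT, a pattern that 1.46% of the 14556 tested genes showed in that direction. The means were 13.3 ± 4.73 CPM in KO and 4.82 ± 1.34 CPM in WT (SD, n = 4 each), a 2.76-fold ratio, and the fitted log2 fold change was 1.46 ± 0.30 (SE).

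KO1 was the highest library for Nlgn1. Because Nlgn1 was picked for being higher in every library labelled KO, the labels stay apart whichever library is left out. KO2, KO3 and KO4 averaged 10.96 ± 1.10 CPM (SD, n = 3), 2.27 times the WT mean, and without KO1 the log2 fold change was 1.18 ± 0.28 (SE). With the neuron marker level as a covariate the log2 fold change was 1.20. With the skeletal muscle marker level as a covariate it was 0.90. The neuron sum mainly set KO1 apart, so for each member the neuron fit came close to leaving KO1 out. The muscle sum was higher in KO1, KO2 and KO4 than in every library labelled WT. The muscle fit can therefore tell the muscle level apart from the label only in part. The part of the muscle and neuron markers in the Nlgn1 values was not tested beyond these fits.

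Nlgn2 (ENSMUSG00000051790), the neuroligin of inhibitory synapses, was nearly level. It had 78, 51, 56 and 62 reads in KO1 to KO4, and 46, 39, 55 and 55 reads in WT1 to WT4. KO1 and KO4 lay above all libraries labelled WT, KO2 and KO3 among them. The means were 21.8 ± 4.65 CPM in KO and 17.9 ± 2.14 CPM in WT (SD, n = 4 each), and the log2 fold change of 0.29 ± 0.18 (SE) was 0.14 ± 0.18 without KO1, 0.15 with the neuron covariate and 0.14 with the muscle covariate.

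Nlgn3 (ENSMUSG00000031302), the neuroligin found at both kinds of synapse, had few reads. These were 28, 12, 10 and 8 in KO1 to KO4, and 7, 9, 7 and 11 in WT1 to WT4. KO1 was 2.48 times the next library, and KO3 and KO4 lay among the libraries labelled WT. The gene lay under the count filter. Its log2 fold change in a fit without the filter was 0.70 ± 0.43 (SE), and 0.15 ± 0.38 without KO1. With the neuron covariate it was 0.16 and with the muscle covariate 0.45.

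Within the neuroligins Nlgn1 took a larger share of the reads in libraries labelled KO. Nlgn1 took 34.6%, 31.5%, 32% and 32.7% of the Nlgn1, Nlgn2 and Nlgn3 reads in KO1 to KO4, against 23.2%, 22.6%, 18.4% and 10.8% in WT1 to WT4. The labels did not overlap in this share either, as with the Nlgn1 level that it contains. Exact Clopper-Pearson 95% intervals, which cover counting error only, were wide: 22.9% to 42.2% for KO3 and 13.9% to 34.9% for WT1. The mean share was 32.7 ± 1.34% in KO and 18.8 ± 5.70% in WT (SD, n = 4 each), and 32.1 ± 0.592% without KO1 (n = 3). KO1 had 162 neuroligin reads, against at most 104 elsewhere, and its share lay inside the counting intervals of KO2, KO3 and KO4.

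**Figure D2:**
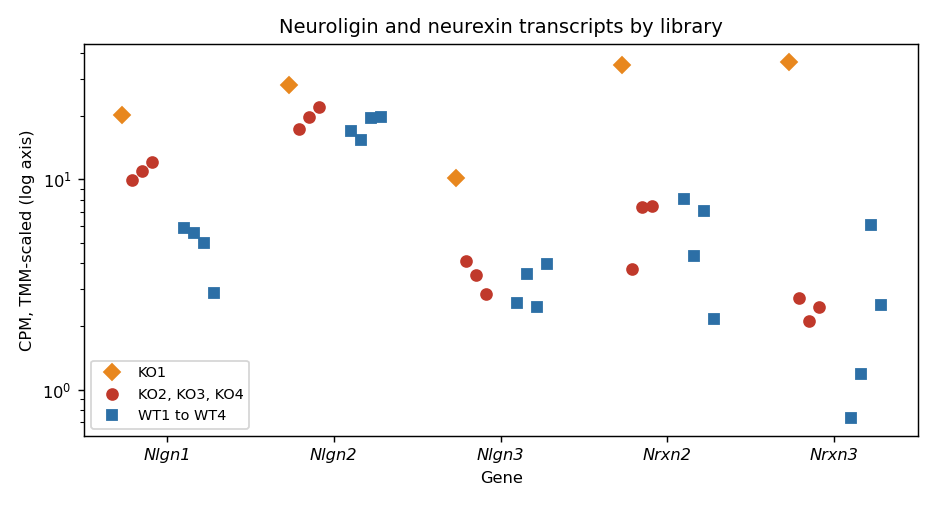
CPM (log axis) of the 3 neuroligins and the 2 neurexins among the members in each library; orange diamonds are KO1, red circles KO2 to KO4 and blue squares WT1 to WT4. For Nlgn1 all 4 libraries labelled KO sit above all those labelled WT, while for the neurexins KO1 alone is high, at 35.1 CPM for Nrxn2 and 36.2 CPM for Nrxn3.

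The neurexins differed in another way: their high values were in KO1. Nrxn2 (ENSMUSG00000033768) had 97, 11, 21 and 21 reads in KO1 to KO4, and 22, 11, 20 and 6 reads in WT1 to WT4. KO1 was 4.34 times the next library, and KO2, KO3 and KO4 fell between the lowest and the highest WT library. The means were 13.4 ± 14.5 CPM in KO and 5.43 ± 2.69 CPM in WT (SD, n = 4 each). The log2 fold change was 1.30 ± 0.78 (SE), and 0.19 ± 0.41 without KO1. With the neuron marker level as a covariate it was 0.28, and with the skeletal muscle marker level it turned to -0.21. Gm14964, an antisense gene inside Nrxn2, had 22, 7, 11 and 11 reads in KO1 to KO4 and 14, 7, 11 and 1 in WT1 to WT4. Since the library kit does not mark strand, reads of the 2 genes cannot be told apart.

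Nrxn3 (ENSMUSG00000066392) had 100, 8, 6 and 7 reads in KO1 to KO4, and 2, 3, 17 and 7 reads in WT1 to WT4. KO1 was 5.99 times the next library, which was WT3, and KO2 to KO4 fell between the lowest and the highest WT library. Like Nlgn3 it lay under the count filter. The unfiltered fit gave a log2 fold change of 2.01 ± 1.25 (SE), and -0.12 ± 0.58 without KO1, so its direction rested on 1 library. It also turned with the neuron covariate, to -0.13, and with the muscle covariate, to -0.54. The means were 10.9 ± 16.9 CPM in KO and 2.62 ± 2.40 CPM in WT (SD, n = 4 each), and KO2 to KO4 averaged 2.44 ± 0.305 CPM.

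Nrxn2 and Nrxn3 together had 197 reads in KO1 and between 13 and 37 reads in each other library, while the 3 neuroligins had 162 reads in KO1 and between 62 and 104 elsewhere. KO1 was therefore further from the other libraries in neurexin than in neuroligin reads. The neuron markers and the neurexins were both highest in KO1. Outside KO1 they went together in some libraries and not in others. WT3 had 29.9 CPM of neuron markers and 13.15 CPM of neurexins, while KO2 had 28.3 and 6.47 CPM. The part of the neuron markers in the neurexin values was not tested beyond the fits with and without KO1 and with the covariate.

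**Figure D3:**
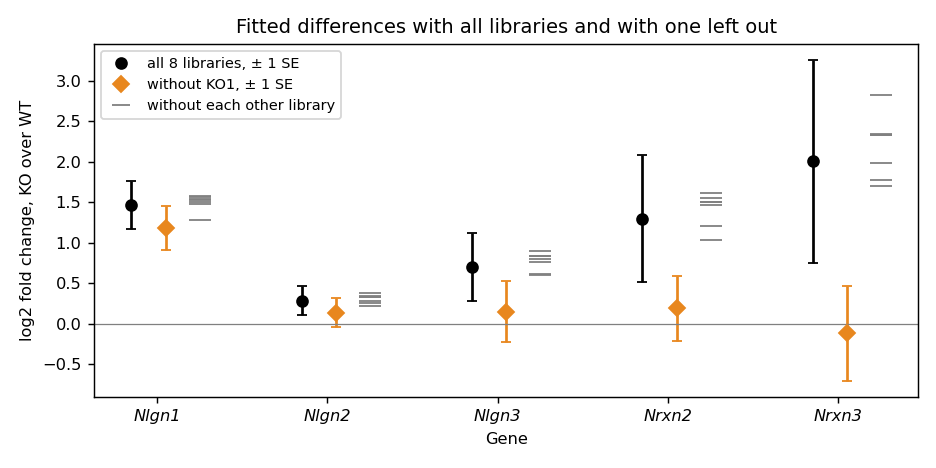
Fitted log2 fold change, KO over WT, of the 5 members; black circles use all 8 libraries and orange diamonds leave out KO1, both with 1 SE either way, and grey dashes leave out each other library in turn. Nlgn1 keeps a value of 1.18 without KO1, while Nrxn2 and Nrxn3 drop to 0.19 and -0.12.

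Across all genes, edgeR's quasi-likelihood test called 0 of 14556 tested genes (0%) at an adjusted p of 0.05, with 653 (4.49%) at an unadjusted p under 0.05. DESeq2 called 36 genes (0.247%). The authors' deposited table lists 1.43% of 18022 genes as higher in KO at an adjusted p under 0.05, and 3 of the 5 members are among them. In the authors' deposited table Nlgn1 has a log2 fold change of 1.46, Nrxn2 1.29 and Nrxn3 1.997. An exact test with one common dispersion for all genes returned the fold changes of the authors' deposited table to within 4.6e-08. That test gives every gene the same relative spread, whereas the KO libraries' SD of Nrxn2 and Nrxn3 exceeded their mean.

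Between members, levels were compared per length, as CPM per kb of summed GENCODE M21 exons. The order by mean log2 level was Nlgn2, Nlgn1, Nrxn2, Nlgn3 and Nrxn3. Nlgn2 stood at 3.44 ± 0.683 CPM per kb (SD, n = 8), from 2.66 in WT2 to 4.88 in KO1, and was above Nlgn1 in 8 of 8 libraries. Nlgn1 ranged from 0.215 in WT4 to 1.51 in KO1, with a median of 0.587 CPM per kb. The mean log2 difference between these 2 neighbours was 2.49 ± 0.698 (SD, n = 8), a 5.63-fold ratio on the log2(CPM + 0.5) scale (exact two-sided sign-flip permutation p = 0.00781, the smallest that 8 libraries allow; adjusted p = 0.0312 over 4 neighbouring pairs). The size of this difference depended on the length: with coding length in place of exon length it was 1.29 on the log2 scale (exact permutation adjusted p = 0.0156).

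With exon length no pair of lower neighbours passed the test, which does not show that their levels were equal. Nlgn1 was above Nrxn2 in 5 of 8 libraries, with a mean log2 difference of 0.22 ± 0.691 (SD, n = 8; exact permutation adjusted p = 0.531). Nrxn2 was above Nlgn3 in 5 of 8, by 0.20 ± 0.878 (exact permutation adjusted p = 0.531), and Nlgn3 above Nrxn3 in 6 of 8, by 0.63 ± 1.10 (exact permutation adjusted p = 0.312). With coding length, Nlgn1 over Nrxn2 was 1.20 (exact permutation adjusted p = 0.0156), Nrxn2 over Nlgn3 turned to -0.24 and Nlgn3 over Nrxn3 was 1.09 (exact permutation adjusted p = 0.0521). The order below Nlgn2 therefore depended on the length used. For Nlgn1 and Nrxn2 it also depended on the label. In WT the means were 0.359 ± 0.0998 and 0.393 ± 0.195 CPM per exon kb, with Nrxn2 higher (SD, n = 4). In KO they were 0.990 ± 0.3525 and 0.972 ± 1.05 (SD, n = 4). Nlgn1 was picked for its KO values, which enter these tests, so its place above Nrxn2 is not free of that choice. The exons are those of GRCm38 while the submitters' processing notes name mm9.

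**Figure D4:**
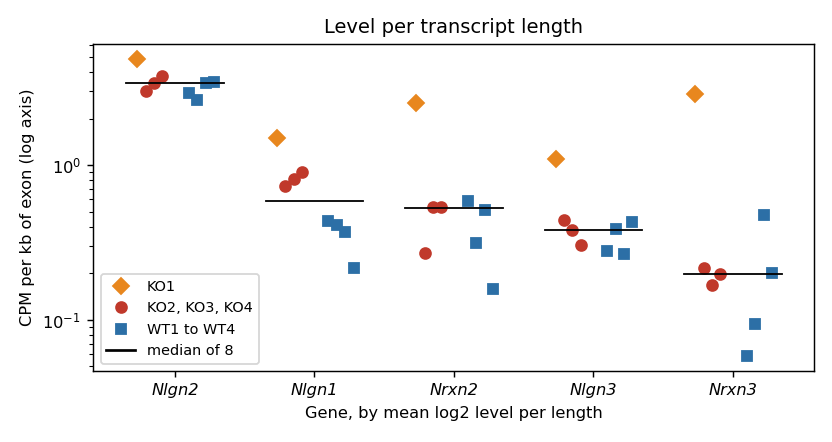
CPM per kb of exon (log axis) of the 5 members in each library, with the median of 8 as a black line; orange diamonds are KO1, red circles KO2 to KO4 and blue squares WT1 to WT4. Nlgn2 lies highest, at 2.66 to 4.88 CPM per kb, and the other 4 members overlap.

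The 5 genes whose pattern over the 8 libraries was most like that of Nlgn1 are given as a description, since they were picked for likeness to the values that chose Nlgn1; of them Mb is on the skeletal muscle list. Likeness was the root mean square difference of log2 CPM, each gene centred on its own mean; the SD of Nlgn1 itself was 0.83. The nearest were Pfkm, the muscle phosphofructokinase, at 0.319, Fam171b at 0.321, Mb, the oxygen carrier myoglobin, at 0.343, Usp13, a deubiquitinase, at 0.364 and Sbk2 at 0.385. Pfkm stood at 82.5, 44.3, 34.6 and 70.3 CPM in KO1 to KO4, against 32.7, 27.7, 25.9 and 22.4 CPM in WT1 to WT4. Mb stood at 127.3, 101.1, 63.5 and 123.9 CPM in KO1 to KO4, against 53.0, 56.9, 45.9 and 40.1 CPM in WT1 to WT4. Both were lowest in KO3 among the libraries labelled KO. Nlgn1 had 29 reads in KO2 and 31 in KO3, too close to put these libraries in order. Fam171b stood at 19.9, 10.2, 8.47 and 7.46 CPM in KO1 to KO4, against 6.25, 5.53, 4.27 and 4.34 CPM in WT1 to WT4. Of 14555 other genes, Nrxn2 ranked 543 and Nlgn2 586 in likeness to Nlgn1.

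The genes that work with neuroligins and neurexins did not pass the test. Of 109 partner genes in 5 lists, 88 were in the table and 65 were tested. Of these 65, edgeR's quasi-likelihood test called 0 in either direction, as it did over all 14556 genes. In that test 8 of the 65 had an unadjusted p under 0.05, against 4.49% of all tested genes. DESeq2 called 0 of the 65, against 0.247% of all tested genes. Positive log2 fold changes were found for 44 of the 65, with a median of 0.11, against a median of 0.00 and 7290 positive values over all 14556 genes. Without KO1, 38 of the 65 were positive with a median of 0.05, against 7336 positive of 14806 genes. In that fit 2 of the 67 partner genes tested had an unadjusted p under 0.05, against 634 of all 14806 genes. KO1 was the highest of the 8 libraries for 26 of the 65 (40.0%), against 14.2% of all tested genes.

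**Figure D5:**
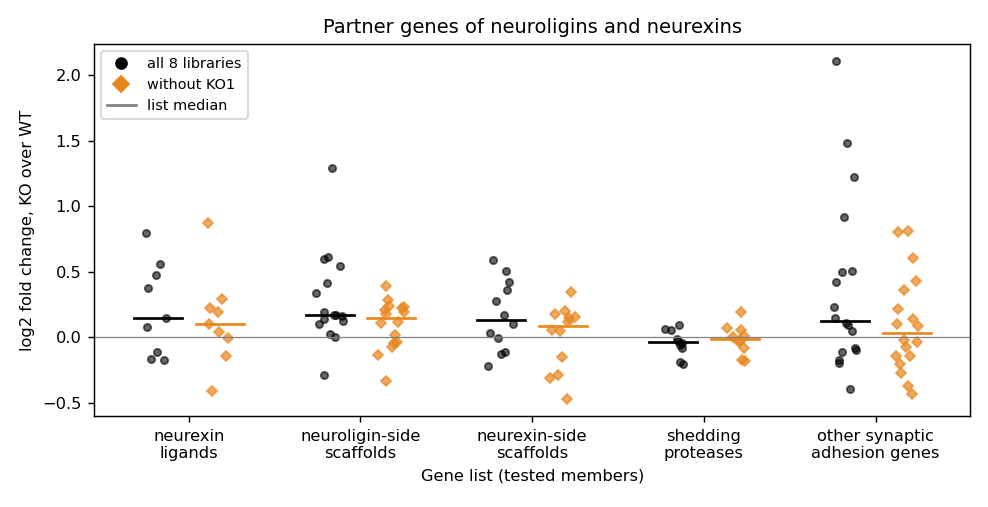
Fitted log2 fold change, KO over WT, of the tested genes of 5 partner lists; black circles use all 8 libraries, orange diamonds leave out KO1, and lines are list medians. Medians lie between -0.04 and 0.17 with all libraries, and for neuroligin-side scaffolds and other adhesion genes the highest values are smaller without KO1.

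Among neurexin ligands, 6 of 9 tested genes were positive, with a median log2 fold change of 0.15, and 6 of 9 without KO1, with a median of 0.10. Lrrtm3, a leucine-rich repeat ligand, had 12, 20, 15 and 13 reads in KO1 to KO4 and 8, 4, 12 and 9 in WT1 to WT4, with KO1 not the highest. Its log2 fold change was 0.79 ± 0.33 (SE; edgeR adjusted p = 0.998). Clstn2, a calsyntenin, had 0.56 ± 0.25, and 0.29 without KO1. Lphn1, the latrophilin now named Adgrl1, had 0.47 ± 0.25, and 0.19 without KO1. Dag1, dystroglycan, had -0.17 ± 0.12.

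Among scaffolds on the neuroligin side, 15 of 16 were positive, with a median of 0.17, and 11 of 16 without KO1, with a median of 0.15. Dlg2, of the family of membrane scaffolds that bind the neuroligin tail, had 188, 154, 144 and 133 reads in KO1 to KO4 and 92, 109, 124 and 122 in WT1 to WT4. The labels did not overlap in its scaled level, a pattern with KO higher that 2 of the 65 tested partner genes and 1.46% of all tested genes showed. Its log2 fold change was 0.41 ± 0.15 (SE, edgeR quasi-likelihood adjusted p = 0.998), and 0.28 without KO1. Dlg4, the best known scaffold of excitatory synapses, had 0.62 ± 0.35, and 0.24 without KO1. Magi2, another membrane scaffold, had 0.60 ± 0.27, and 0.39 without KO1. Shank1, a scaffold under the count filter, had 101 reads in KO1 and between 2 and 7 in the others; it is named because of that value.

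Among scaffolds on the neurexin side, 8 of 12 were positive, with a median of 0.14, and 8 of 12 without KO1, with a median of 0.09. Apba1, an adaptor that binds Cask, had 0.42 ± 0.18 (SE) and Cask, which binds the neurexin tail, 0.17 ± 0.12. Ppfia2, a liprin, had 0.59 ± 0.40, and 0.17 without KO1. The 10 proteases that shed or cut these proteins had a median of -0.04, with KO1 the highest library for 0 of them. Without KO1 their median was -0.02. Adam17 had 0.10 ± 0.14, and 0.19 without KO1, Bace1 0.06 ± 0.11, and the gamma-secretase subunits Aph1b and Psenen -0.19 ± 0.33 and -0.20 ± 0.19.

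Among other synaptic adhesion genes, 12 of 18 were positive with a median of 0.13, and 9 of 18 without KO1, with a median of 0.03. Odz2, a teneurin that binds latrophilins, had 1.49 ± 0.50 (SE), and 0.81 without KO1. Cadm2, of the SynCAM family, had 64 reads in KO1 and between 5 and 19 elsewhere, and its 1.22 ± 0.57 was 0.43 without KO1. Cadm3, of the same family, had 0.50 ± 0.18, and 0.36 without KO1. Flrt2, a latrophilin ligand, had 0.51 ± 0.20, and 0.60 without KO1. For all tested genes named from the lists, the adjusted p was 0.998 in edgeR's quasi-likelihood test.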

How the data were processed

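The deposited files are a table of raw counts (reads per Ensembl gene, not normalized by the authors) and the authors' KO against WT comparison. Its deposited log2 and p-value columns carry edgeR's names, per the file headers. Build mm9 and the tools Bowtie2, FastQC and edgeR stand in the submitters' processing notes; the sources used here do not name a counter or annotation. The kit does not mark strand, per the labels' protocols.

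Groups come from the titles, and columns were matched by mouse label. The test was the quasi-likelihood test of edgeR 4.0.16 in R 4.3.3 (TMM, filterByExpr, robust) with Benjamini-Hochberg adjustment. Of the members, 3 passed the filter; Nlgn3 and Nrxn3 were fitted without it. A standard error is the log2 fold change divided by the root of F. Levels per length used log2 CPM with a pseudocount of 0.5. The common dispersion was 0.0337, a coefficient of variation of 18.4%.

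The members and gene lists were chosen with earlier results of these data known. Named were the members, Prkd1, up to 4 genes per list with the smallest p and the 5 genes most like Nlgn1, except that some genes are not reported here; Gphn, Odz4, Shank3, Shank1 and single marker genes were named after their values were seen. Alternatives were other scaling, no count filter, DESeq2 1.42.0, the replicate number as a block, a muscle covariate, each library left out and coding length; a neuron covariate and the exact test were added after seeing the data. Libraries of one label differed by a chi-square of at least 4.45 per gene, so none was counted as a copy.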

Additional observations from a re-analysis of the deposited data

Results flagged for a closer look

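Of 78 groups of 4 libraries examined, 10 held a library whose gap to its nearest neighbour took up more of the group's range than Dixon's 95% critical value; chance flags about 1 group in 20. Of these, 8 were KO1.

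KO1 was set apart from KO2 to KO4 for both neurexins. Nrxn2 stood at 35.1 CPM in KO1 (3.75 to 7.46 in the other 3) and Nrxn3 at 36.2 CPM (2.12 to 2.72). Nlgn3, at 10.1 CPM (2.84 to 4.09), was at the limit, and Nlgn1 and Nlgn2 were not flagged. Of their partners, Cadm2 stood at 23.2 CPM in KO1 (4.97 to 6.47 in KO2 to KO4) and Odz2 at 15.6 CPM (3.91 to 4.94). Sbk2, one of the genes most like Nlgn1, stood at 17.7 CPM in KO1 (3.91 to 4.94). The neuron marker sum was 247.7 CPM in KO1 (14.1 to 28.3) and the Schwann cell marker sum 702 CPM (350.4 to 397). The part of the neuron and Schwann cell markers in these values was not tested beyond the fits without KO1 and with the neuron covariate.

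In the other 2 cases Dlg2 was low in WT1, at 33.8 CPM, against 43.1 to 44.1 CPM in WT2 to WT4, and Psenen was high in KO4, at 13.1 CPM, against 10.9 CPM in the nearest of KO1 to KO3.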

How the results depend on the processing

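Other scaling and DESeq2 kept the sign of each member's log2 fold change, as did no count filter for Nlgn1, Nlgn2 and Nrxn2 (Nlgn3 and Nrxn3 are given without it throughout), and none moved by more than the spread between replicates. With the muscle covariate Nlgn1 was 0.90, Nlgn2 0.14, Nlgn3 0.45, Nrxn2 -0.21 and Nrxn3 -0.54. With the neuron covariate Nlgn1 was 1.20, Nlgn2 0.15, Nlgn3 0.16, Nrxn2 0.28 and Nrxn3 -0.13. With 1 library left out the log2 fold changes ranged from 1.18 to 1.58 for Nlgn1, 0.14 to 0.38 for Nlgn2, 0.15 to 0.90 for Nlgn3, 0.19 to 1.61 for Nrxn2 and -0.12 to 2.82 for Nrxn3, each lowest without KO1; the cause was not tested. The count of called genes was 36 with DESeq2, 436 with the exact test and 0 to 50 with 1 library left out, the 50 without KO3. The partner lists had 9 calls with the exact test, Shank1 and Ncam1 among them, and 0 to 0 with 1 library left out. Per length, coding length gave 1.29 for Nlgn2 over Nlgn1, 1.20 for Nlgn1 over Nrxn2, -0.24 for Nrxn2 over Nlgn3 and 1.09 for Nlgn3 over Nrxn3. Nlgn2 over Nlgn1 was 2.31 to 2.61 with 1 library left out, each with an adjusted p of 0.0625 in the exact permutation test. With 1 library fewer, this is the smallest adjusted p the test can give when no other pair reaches its lowest p. These adjusted p therefore cannot tell whether the difference rested on any library. Nlgn2 was above Nlgn1 in 8 of 8 libraries.

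Replicate numbers did not pair the libraries: deviations of same-numbered libraries correlated at -0.14 to -0.29, and 0 of 4 KO libraries correlated best with their own number. With the replicate block 0 genes were called, with 454 at an unadjusted p under 0.05, and Nlgn1 was 1.45, Nlgn2 0.28, Nlgn3 0.59, Nrxn2 1.05 and Nrxn3 1.28. Depth limits the members: Nlgn3 and Nrxn3 had 10 reads or fewer in several libraries, and Nlgn1 and Nrxn2 in WT4.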

Other observations

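Several scaffold and adhesion genes of synapses were well covered in fat, and KO1 was not the highest library for any of the 3 given here. Gphn, gephyrin, which anchors inhibitory receptors in neurons and makes the molybdenum cofactor in other cells, stood at 1524 ± 259.8 CPM in KO and 1871 ± 394.4 CPM in WT (SD, n = 4 each), with a log2 fold change of -0.29 ± 0.18 (SE). Odz4, a teneurin, stood at 450.9 ± 158.5 CPM in KO and 483.4 ± 121.6 CPM in WT. Shank3, a scaffold of the same family as Shank1, stood at 191.3 ± 34.0 CPM in KO and 171.5 ± 37.2 CPM in WT, and its 495 reads in KO1 lay inside the range of 307 to 665 reads of the other libraries. These genes were named after their values were seen.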
